A study of Mus musculus with 32 samples.

Results

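Gene expression in tumors of Dnase1l3-KO mice was compared with that in the colon of untreated mice of the same genotype, and the values below describe all expressed genes in these libraries. The members were the 7 libraries that the labels name as tumor after AOM/DSS (3 mice, 527, 543 and 544) or as basal colon (4 mice, 852, 853, 915 and 872) of the mutant genotype, of 32 libraries in the series. Both groups carried the full-body constitutive Dnase1l3 deletion on the C57BL/6 background, so the controls lacked the gene as well. In the AOM/DSS model, mice 3 months old received 1 injection of azoxymethane (AOM), a carcinogen that alkylates DNA, followed by 3 cycles of dextran sulfate sodium (DSS) in the drinking water, which injures the colon epithelium, and the final tumors were taken at the end. The untreated group is called D0 here, and its age at sampling is not stated in the sources used here. D0 RNA came from whole colon and tumor RNA from tumor only, and the number that precedes the mouse number in the titles is 123, 125 or 134 for D0 mice and 74 or 76 for tumor mice. Tumor, treatment, tissue dissected and that number therefore cannot be told apart in this comparison.

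DNASE1L3 is a secreted endonuclease that digests extracellular DNA, including chromatin from dying cells, and myeloid cells are its main known source. The colon epithelium is renewed from Wnt-dependent stem cells at the crypt base, whose progeny mature into absorptive colonocytes, goblet, enteroendocrine and tuft cells as they move up. AOM/DSS tumors commonly carry mutations that activate β-catenin, and DSS colitis brings neutrophils, monocytes and lymphocytes into the mucosa.

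The 7 libraries held 32840426 to 40391830 counts at D0 and 33795948 to 34288788 in tumor. Pearson's r of log2 CPM (counts scaled to the size of the library) ran from 0.9747 to 0.9872 within D0, from 0.9549 to 0.9874 within tumor and from 0.7929 to 0.843 between them. In each group 1 library differed from the others. In the tumor of mouse 544, mitochondrially encoded mRNAs took 7.93% of counts and ribosomal protein genes 12.5%, against 3.29% to 3.31% and 6.56% to 6.73% in the other tumors. In the D0 colon of mouse 872, Hoxb13, a homeobox gene of the distal colon, was at 4.001 CPM against 127 to 154 in the other D0 mice. Where leaving out either library changed the call of a gene named here, that change is stated. In bulk tissue, fewer cells of a type and less RNA per cell cannot be told apart.

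Differences below are log2 fold changes, tumor minus D0, from edgeR's quasi-likelihood test, with p adjusted over the 19125 genes tested. The SE beside each was derived from that test, as the size of the difference over the square root of its F statistic. Differentially expressed genes were those with both an adjusted p below 0.05 and more than 2 times the level in 1 group. By that rule 2804 genes rose (14.7% of those tested) and 3030 fell (15.8%), and the median over all genes was 0.09. In 9644 genes (50.4%) the 3 tumors and the 4 D0 colons did not overlap. Levels are given as CPM scaled over all 32 libraries, a scaling under which the median of all genes lies 0.114 higher in log2 than in the fit of the 7 libraries, so ratios of the printed CPM run above the fitted differences. Genes near 0 at D0 passed the filter on low counts only through the tumors, and genes near 0 in tumor only through D0. Counts and medians of lists that are low in 1 group therefore describe the members that passed and support nothing by themselves. Lists and their members were also chosen with earlier results of these data known, so list counts beside the shares over all genes are descriptions only. Where a group has 0 counts in every library, the difference is given as a bound against 3 counts over the group. D0 levels are listed in the order of mice 852, 853, 915 and 872, and tumor levels in the order of mice 527, 543 and 544.

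Dnase1l3 itself was at 5.02, 3.001, 3.29 and 1.64 CPM at D0 and at 3.57, 4.03 and 8.50 CPM in tumor. The groups overlapped and the gene did not pass the test (0.60 ± 0.43, adjusted p = 0.286). Without mice 544 and 872 the difference was -0.15. The gene lies on the minus strand of chromosome 14, from 7964533 to 7994573 (GRCm38), and since the part that was deleted is not named in the sources used here, reads over its remaining exons do not check the genotype.

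**Figure D1:**
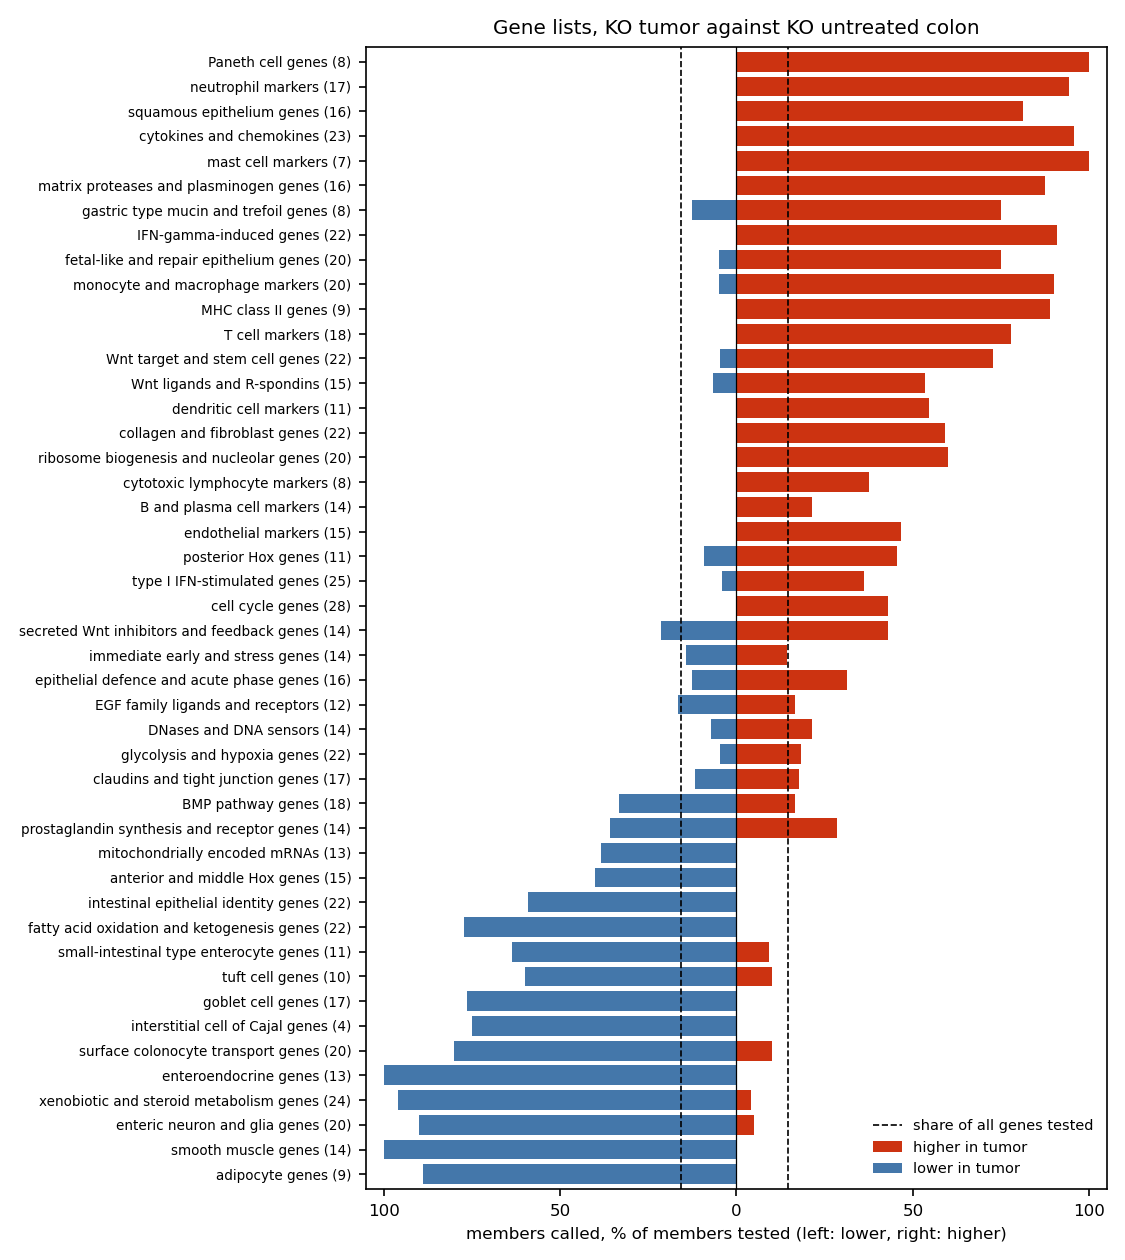
Share of each gene list's tested members that was called higher (red, to the right) or lower (blue, to the left) in KO tumor than in KO D0 colon, in percent, with the number of members tested in brackets and lists ordered by their median difference. The dashed lines mark the shares over all genes tested, 14.7% and 15.8%. Every smooth muscle and enteroendocrine gene tested fell while every Paneth and mast cell gene tested rose. With at least 10 counts in each library, 13 smooth muscle and 7 enteroendocrine genes fell, and 4 Paneth and 1 mast cell gene rose.

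Wnt target and stem cell genes were higher in tumor. Of 22 tested, 16 rose, 1 fell and the median was 1.88, beside 14.7% higher and a median of 0.09 over all genes. Lgr5, the R-spondin receptor that marks crypt base stem cells, was at 3.32, 4.45, 3.78 and 2.98 CPM at D0 and at 49.1, 50.4 and 64.7 CPM in tumor (3.79 ± 0.20, adjusted p = 2.61e-06). Tcf7, a transcription factor that partners β-catenin, went from 2.51 to 3.40 CPM at D0 to 30.8 to 49.1 CPM in tumor (3.70 ± 0.21). Lef1, of the same factor family, was at 0.217 to 0.492 CPM at D0 and at 13.1, 16.4 and 6.36 CPM in tumor (5.16 ± 0.42). The groups did not overlap for any of these genes. Rnf43 and Znrf3, membrane ubiquitin ligases that remove Frizzled receptors, rose by 2.92 ± 0.17 and 2.08 ± 0.15. Tnfrsf19 rose by 3.55 ± 0.25, the stem cell factor Ascl2 by 3.13 ± 0.29, the feedback scaffold Axin2 by 2.79 ± 0.24 and Myc by 1.36 ± 0.21. The member that fell was Rgmb, a co-receptor of the bone morphogenetic protein (BMP) pathway (-1.19 ± 0.16).

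Secreted inhibitors and intracellular feedback genes of the pathway held some of the largest differences. Notum, a secreted enzyme that removes the lipid Wnt ligands need, was at 0.213, 0.362, 0.337 and 0.350 CPM at D0 and at 108, 130 and 96.0 CPM in tumor (8.33 ± 0.24, adjusted p = 1.75e-07). Wif1, which binds Wnt ligands outside the cell, rose from 1.08 to 1.84 CPM to 175, 329 and 530 CPM (7.79 ± 0.44). Apcdd1, a membrane-bound Wnt inhibitor, rose by 6.89 ± 0.27, Dkk2 by 4.97 ± 0.21 and Nkd1 by 3.69 ± 0.25. Each of these 5 genes was higher in every tumor than in every D0 colon. In all, 6 of 14 members tested rose and 3 fell, with a median of 0.57. Nkd2, a relative of Nkd1, went the other way, from 17.9, 7.56, 9.82 and 17.7 CPM to 1.06, 1.12 and 0.572 CPM (-3.96 ± 0.41).

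Of 19 Wnt ligands and R-spondins 15 passed the filter, of which 8 rose and 1 fell, with a median of 1.49. With at least 10 counts in each library 4 rose, and with DESeq2, an alternative to edgeR, 3 fell. Wnt10a was at 0.0259 to 0.0797 CPM at D0 and at 26.0, 37.2 and 47.5 CPM in tumor (9.29 ± 0.38). Wnt6 went from 0.466 to 0.672 CPM to 38.5, 59.3 and 68.4 CPM (6.46 ± 0.27), and Wnt5a from 5.96 to 6.94 CPM to 36.3, 36.0 and 24.0 CPM (2.19 ± 0.18). Wnt3, the ligand that Paneth cells provide in the small intestine, was at 2.94, 3.81 and 6.57 CPM in tumor and had 0 counts in D0 mice 852 and 853 (6.69 ± 0.70). Rspo3, the R-spondin of crypt-base stroma, fell by 1.91 on the log2 scale (SE 0.40), from 1.78 to 4.27 CPM to 0.560 to 1.0 CPM.

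**Figure D2:**
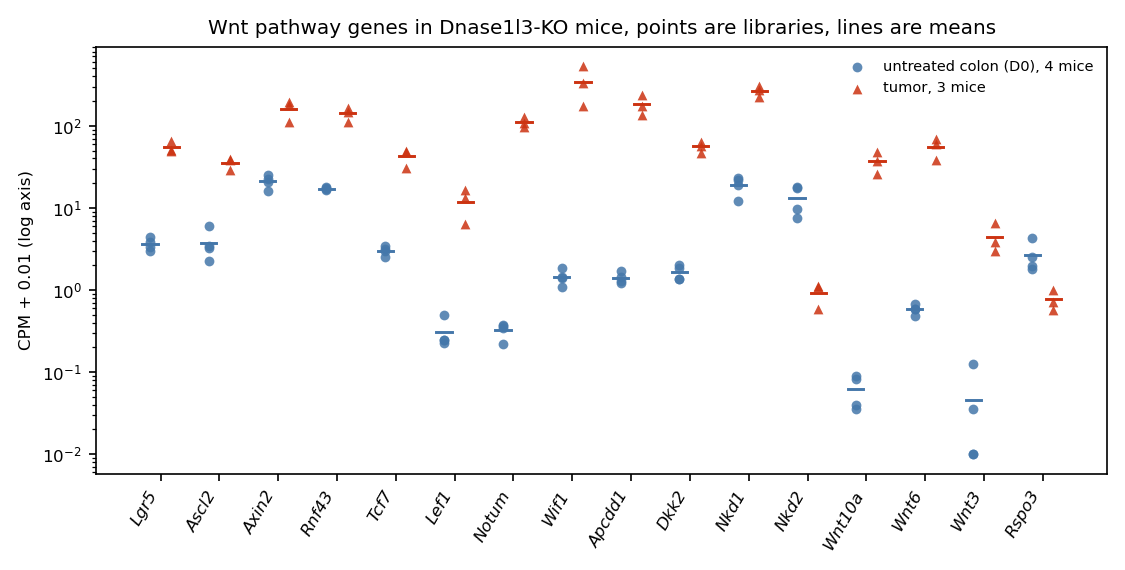
Levels of Wnt target, inhibitor and ligand genes in each library, as CPM plus 0.01 on a log axis, with D0 colon in blue and tumor in red, each point 1 library and each line the group mean. Points at 0.01 are libraries with 0 counts. The red points lie above the blue points for all genes shown but Nkd2 and Rspo3, where they lie below.

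The core letters of the TCF/LEF binding motif, CTTTGA on either strand, were looked up in the 250 bases before the RefSeq start of these genes (GRCm38.p6). They stood before 2 of the 14 Wnt target genes with an entry (Lef1 and Tnfrsf19), 2 of 8 inhibitor genes and 2 of 13 ligand genes. Of all 27025 genes listed 15.8% held them, or 13.8% of 32851 promoters. A match is a description of letters and not a binding site, and no match concerns this window alone.

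The BMP pathway, which opposes Wnt along the crypt, was mixed, with 3 of 18 members higher and 6 lower. Of all genes tested 14.7% were higher and 15.8% lower. Bmp7 rose from 3.58 to 6.02 CPM to 30.4, 35.4 and 38.9 CPM (2.79 ± 0.21), and the decoy receptor Bambi by 2.26 ± 0.27. Bmp3 was at 27.4, 56.5, 26.7 and 37.5 CPM at D0 and at 2.37, 2.80 and 1.39 CPM in tumor (-4.19 ± 0.35). The secreted BMP antagonist gene Chrdl1 fell as well (-4.70 ± 0.62). Of 12 ligands and receptors of the epidermal growth factor (EGF) family 2 rose and 2 fell, near the shares over all genes, and 8 were not called. Ereg (1.70 ± 0.23) and Nrg1 (1.88 ± 0.27) rose, and Egf (-3.33 ± 0.41) and the receptor gene Erbb3 (-1.29 ± 0.29) fell. Without mice 544 and 872 together Erbb3 missed the fold threshold (-0.94).

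Genes that mark the fetal intestine or the epithelium that repairs a wound rose in 15 of 20 cases and fell in 1, with a median of 2.29. The secreted phosphoprotein Spp1 went from 0.145 to 0.292 CPM to 85.8, 56.1 and 37.3 CPM (8.05 ± 0.37). Clu, which marks revival stem cells after damage, was at 11.6 to 27.7 CPM at D0 and at 577, 397 and 234 CPM in tumor (4.37 ± 0.38). Ly6d rose by 5.99 ± 0.35 and the alarmin Il33 by 4.61 ± 0.30. Emp1, the member that fell, went from 1103 to 2223 CPM to 203 to 252 CPM (-2.77 ± 0.32).

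Genes of mature epithelial cells were lower. None of 17 goblet cell genes rose and 13 fell, with a median of -2.30, where 15.8% of all genes fell. Muc2, the main gel-forming mucin, was at 4940, 7627, 6001 and 11240 CPM at D0 and at 877, 1018 and 490 CPM in tumor (-3.35 ± 0.42). Atoh1, the factor that sets the secretory lineage, went from 36.9 to 52.9 CPM to 8.68 to 10.9 CPM (-2.30 ± 0.18) and Spdef, which acts after it, fell by 2.44 on the log2 scale (SE 0.17). Among the members not called, Spink4 was at 581 to 1748 CPM at D0 and at 663, 846 and 2206 CPM in tumor, so the groups overlapped (0.14 ± 0.49). Tff3 was lower in each tumor but missed the fold threshold (-0.96 ± 0.23, adjusted p = 0.00806), which it passed without D0 mouse 915 (-1.04) or tumor mouse 543 (-1.10).

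Of 15 enteroendocrine genes 13 passed the filter and all 13 fell, with a median of -3.76, or 7 with at least 10 counts in each library. Sst, which encodes somatostatin, was at 14.9, 14.7, 12.1 and 15.4 CPM at D0 and at 0.409, 0.213 and 0.286 CPM in tumor (-5.67 ± 0.28). Gcg, the proglucagon gene of L cells, went from 48.8 to 96.2 CPM to 0.800 to 1.23 CPM (-6.08 ± 0.34), and Tph1, which makes serotonin in enterochromaffin cells, fell by 4.28 on the log2 scale (SE 0.28). Of 10 tuft cell genes 6 fell, with the channel gene Trpm5 (-4.50 ± 0.40) and the kinase gene Dclk1 (-3.08 ± 0.28) among them. Avil, which encodes the actin-binding protein advillin, rose from 4.92 to 6.11 CPM to 78.4, 62.3 and 26.6 CPM (3.21 ± 0.31).

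Surface colonocytes absorb water and salt and secrete bicarbonate. Of 20 of their transport genes 16 fell and 2 rose, with a median of -3.63. The water channel gene Aqp8 was at 761, 1234, 902 and 1185 CPM at D0 and at 11.1, 4.27 and 4.89 CPM in tumor (-7.36 ± 0.49). Guca2a, the gene of the peptide guanylin, went from 2144 to 3672 CPM to 51.5, 63.1 and 91.0 CPM (-5.47 ± 0.38). The chloride channel gene Cftr fell by 2.90 on the log2 scale (SE 0.22). Both members that rose encode subunits of the epithelial sodium channel, Scnn1g (3.53 ± 0.71) and Scnn1b (1.31 ± 0.48, adjusted p = 0.0488), and Scnn1b lost the call without D0 mouse 852 or 915 or without any 1 tumor, and also with RLE size factors (adjusted p = 0.0551), with upper quartile factors (adjusted p = 0.0507) and with at least 10 counts in each library (adjusted p = 0.0548). Atp12a, the non-gastric proton pump, was at 107, 98.2, 87.0 and 0.555 CPM at D0 and at 134, 130 and 82.3 CPM in tumor, and the low D0 library was that of mouse 872 (0.52 ± 0.997, adjusted p = 0.699).

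Genes of detoxification and steroid metabolism fell in 23 of 24 cases, with a median of -4.0. Cyp2c55, a cytochrome P450, was at 1112, 886, 1718 and 3323 CPM at D0 and at 1.66, 2.32 and 1.43 CPM in tumor (-10.05 ± 0.68, adjusted p = 6.9e-06). Ugt2b5, a glucuronosyltransferase outside this list, had 2946 counts over the D0 colons and 0 counts in tumor, a difference of -9.46 or further from 0. The sulfotransferase gene Sult1a1 fell by 6.12 on the log2 scale (SE 0.41). The exception was Gsta4, a glutathione transferase for lipid peroxidation products, which rose from 19.6 to 44.9 CPM to 83.8 to 107 CPM (1.70 ± 0.27).

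Of 22 genes of fatty acid oxidation and ketogenesis 17 fell and none rose, with a median of -1.32. Ppara, the fatty acid sensing receptor that drives such genes, was at 5.77, 3.94, 7.07 and 8.56 CPM at D0 and at 0.572, 0.507 and 0.536 CPM in tumor (-3.67 ± 0.34). Acadm, a medium-chain dehydrogenase, fell by 1.54 on the log2 scale (SE 0.19). Glycolysis and hypoxia genes had a median of 0.03, with 4 of 22 higher, 1 lower and 17 not called. Of all genes tested 14.7% were higher and 15.8% lower. The lactate exporter gene Slc16a3 rose from 7.80 to 12.3 CPM to 79.7, 111 and 99.5 CPM (3.13 ± 0.21) and the glycolytic regulator Pfkfb3 by 2.74 ± 0.23. Ldha, lactate dehydrogenase, was at 911 to 1359 CPM at D0 and at 771 to 1082 CPM in tumor (-0.33 ± 0.24, adjusted p = 0.293).

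Whether the tumors were epithelial was read from genes that all epithelial cells share. Epcam, a surface protein of every gut epithelial cell, was at 1360, 1635, 1436 and 1560 CPM at D0 and at 1609, 1567 and 1295 CPM in tumor (-0.13 ± 0.22). Krt8 (-0.23 ± 0.34), Krt19 (-0.06 ± 0.34) and Cdh1 (-0.04 ± 0.24) overlapped between the groups too, with the tumor of mouse 544 lowest in each. Of 22 intestinal epithelial identity genes 13 fell and none rose, with a median of -1.32. Cdx2, the factor that specifies intestine, was at 182, 190, 234 and 249 CPM at D0 and at 17.0, 12.9 and 3.57 CPM in tumor (-4.39 ± 0.49, adjusted p = 0.000106), so it lay far below D0 in each tumor and lowest in mouse 544. Its relative Cdx1 fell by 1.26 on the log2 scale (SE 0.28). The absorptive cell gene Fabp2 went from 494 to 1268 CPM to 1.89 to 2.53 CPM (-8.74 ± 0.47). Of 11 genes of small-intestinal type enterocytes 7 fell and 1 rose.

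Paneth cell genes, which belong to the small intestine in the healthy mouse, were at low levels at D0 and rose in all 8 members tested, with a median of 10.11. Lyz1, the Paneth lysozyme, was at 7.71, 11.8, 5.49 and 8.12 CPM at D0 and at 1193, 1803 and 3311 CPM in tumor (7.88 ± 0.48). Mmp7, the protease that activates defensins, went from 0.850 to 2.02 CPM to 380, 422 and 917 CPM (8.61 ± 0.49). The α-defensin gene Defa24 was at 112, 314 and 1223 CPM in tumor and at 0.259 to 0.409 CPM at D0 (10.51 ± 0.91). The order of the tumors was the same for these 3 genes, with mouse 544 highest. Defensin genes are near-identical copies that can share reads, and Defa36 and Defa37 had the same level in each of these 7 libraries, so single defensin values are uncertain. Of the 12 largest increases, 10 were defensin genes. The other pair was Serpinb11, with 1 count over the D0 colons and 31.6, 27.9 and 28.8 CPM in tumor, and Cyp21a1, the steroid 21-hydroxylase, with 0 counts at D0 and 16.6, 14.9 and 4.32 CPM in tumor, a difference of 9.10 or more.

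Keratins and desmosomal genes of stratified squamous epithelium, a lining that the colon lacks and the anal canal has, rose in 13 of 16 members, with a median of 5.54 and none lower. The list holds 20 genes, of which 16 passed the filter, and 3 rose with at least 10 counts in each library. Krt6a had the smallest p of all genes that rose. It was at 0.160, 0.108, 0.130 and 0.204 CPM at D0 and at 97.9, 91.5 and 72.4 CPM in tumor (9.01 ± 0.24, adjusted p = 1.75e-07). Krt5, a keratin of basal squamous cells, was at 0.0723 to 0.440 CPM at D0 and at 143, 99.8 and 107 CPM in tumor (8.46 ± 0.41), and its partner Krt14 went from 0.337 to 1.12 CPM to 231, 220 and 106 CPM (7.90 ± 0.43). Trp63, the master factor of squamous stem cells, rose from at most 0.0723 CPM to 5.15, 3.25 and 3.96 CPM (6.12 ± 0.38). All 3 tumors carried these transcripts. Krt6a and Krt6b are close paralogs and may share reads. Of 12 gastric mucin and trefoil genes 8 passed the filter, of which 6 rose and 1 fell. The summed level of the 12 overlapped between the groups, at 138.8 to 199.7 CPM at D0 and 99.38 to 154.3 CPM in tumor. Muc1 went from 2.55 to 4.23 CPM to 49.9 to 78.5 CPM (3.999 ± 0.23), while Muc4, a membrane mucin of the colon, fell by 1.71 on the log2 scale (SE 0.31).

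Hox genes carry the position of a cell along the body axis. On the D cluster of chromosome 2, Hoxd9 to Hoxd13 rose and Hoxd8, which lies next to them, did not pass the test. Hoxd11 was at 0.266, 0.651, 0.285 and 0.175 CPM at D0 and at 11.3, 14.6 and 11.1 CPM in tumor (5.06 ± 0.38, adjusted p = 1.07e-05). Hoxd13, the last of the cluster, was at 4.09, 7.12, 2.07 and 0.0876 CPM at D0 and at 122, 128 and 104.8 CPM in tumor (5.03 ± 0.83). Hoxd12 rose by 6.14 ± 0.58, Hoxd10 by 4.48 ± 0.38 and Hoxd9 by 2.87 ± 0.36. The other clusters did not share this. Hoxa9 (0.71 ± 0.19), Hoxa10 (-0.21 ± 0.18) and Hoxa13 (-0.70 ± 0.15) were not called and Hoxa11 fell by 1.11 on the log2 scale (SE 0.36), with overlapping groups, a call that was lost without D0 mouse 852, 915 or 872 or tumor mouse 527 or 544. Hoxb13 was at 210, 199 and 135 CPM in tumor, against 139, 154, 127 and 4.001 CPM at D0 (0.64 ± 0.81, adjusted p = 0.549). Of 15 anterior and middle Hox genes 6 fell and none rose, and 2 fell without D0 mouse 852 or without tumor mouse 544. The stretch of colon from which each library came is not given in the labels, and its part in these values was not tested.

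**Figure D3:**
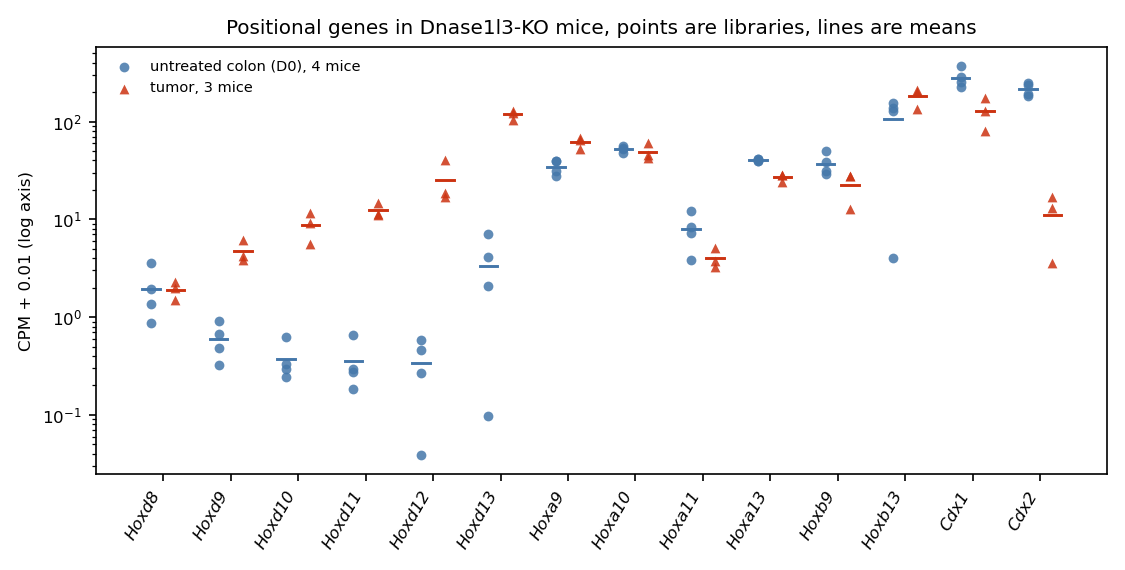
Levels of Hox and Cdx genes in each library, as CPM plus 0.01 on a log axis, with D0 colon in blue and tumor in red, each point 1 library and each line the group mean. Hoxd9 to Hoxd13 lie higher in every tumor, Hoxd8 overlaps, and the single low Hoxb13 point at D0 is mouse 872, at 4.001 CPM.

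Cell cycle genes rose in 12 of 28 cases and none fell, with a median of 0.63. Mcm3, of the replicative helicase, was at 16.8, 17.9, 16.8 and 20.01 CPM at D0 and at 98.1, 86.8 and 59.2 CPM in tumor (2.06 ± 0.19), and Mcm2, Mcm4, Mcm5, Mcm6 and Mcm7 were called as well. Pcna, the sliding clamp, rose by 1.20 ± 0.18. Mki67, the usual proliferation marker, was at 67.6 to 115 CPM at D0 and at 165, 133 and 38.3 CPM in tumor, where mouse 544 lay below D0 (0.14 ± 0.41, adjusted p = 0.801). Cdkn2a, which encodes the cell cycle inhibitors p16 and p19, had 1 count over the D0 colons and was at 11.6, 11.7 and 21.7 CPM in tumor. Ribosome biogenesis genes rose in 12 of 20 members with none lower (median 1.12), among them Nop56 (1.34 ± 0.20), the nucleolar methyltransferase gene Fbl (1.23 ± 0.19) and Ncl, which encodes nucleolin (1.55 ± 0.28).

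Of 30 cytokine and chemokine genes 23 passed the filter on low counts and 22 of these rose, or 8 with at least 10 counts in each library. The median of the 23 was 5.11, and Ccl20, the ligand of CCR6, did not pass the test (0.23 ± 0.35). Cxcl5, a neutrophil attractant made by epithelium, was at 0.531, 0.506, 0.466 and 0.409 CPM at D0 and at 173, 162 and 233 CPM in tumor (8.50 ± 0.25, adjusted p = 1.75e-07). Cxcl1, of the same family, went from 0.0518 to 0.160 CPM to 14.7, 12.3 and 21.2 CPM (7.14 ± 0.37). Il1b was at 0.372 to 0.651 CPM at D0 and at 41.3, 41.1 and 60.05 CPM in tumor (6.55 ± 0.27). Il11, a relative of IL-6 that acts on epithelium, rose by 6.54 ± 0.33, Il23a by 6.08 ± 0.35 and Tnf by 4.13 ± 0.33. Cxcl2 and Cxcl3 had 2 and 1 counts over the D0 colons and were at 14.8 to 19.8 CPM and 14.2 to 19.5 CPM in tumor.

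The 3 chemokine genes Cxcl1, Cxcl2 and Cxcl3, which lie near each other on chromosome 5 and were all called higher, are shown with the 110 bases before their RefSeq start, since each holds the letters of the NF-κB motif (GGG, any 2 bases, then TTTCC, on either strand), in capitals. These letters were chosen after the values were seen. They stood in the 250 bases before 5 of the 19 cytokine and chemokine genes with an entry, in 1.65% of all genes listed and in 1.41% of all promoters. The 5 are these 3, Il6 and Ccl20, the gene of the list that did not pass the test. The regions are chr5:90891135-90891244 for Cxcl1, chr5:90903789-90903898 for Cxcl2 and chr5:90785991-90786100 for Cxcl3, all on the plus strand of GRCm38.p6 and upstream of the gene.
Cxcl1: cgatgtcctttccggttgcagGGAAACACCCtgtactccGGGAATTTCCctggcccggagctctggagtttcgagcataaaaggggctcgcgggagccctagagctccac
Cxcl2: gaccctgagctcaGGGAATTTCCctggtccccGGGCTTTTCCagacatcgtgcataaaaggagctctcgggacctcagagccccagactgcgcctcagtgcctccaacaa
Cxcl3: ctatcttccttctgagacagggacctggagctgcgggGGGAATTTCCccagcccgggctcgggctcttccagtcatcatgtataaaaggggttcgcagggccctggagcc
In the first of these windows and in the second the letters occur 2 times, and in the third 1 time.

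Of 21 neutrophil markers 17 passed the filter and 16 of these rose, or 1 with at least 10 counts in each library. The median of the 17 was 6.55, or 6.18 with the gene at 0 counts set to its bound. S100a9, a calcium-binding protein that fills neutrophils, was at 0.186, 0.868, 0.181 and 0.263 CPM at D0 and at 84.3, 90.3 and 256 CPM in tumor (8.55 ± 0.66). Ltf, lactoferrin, went from 0.289 to 0.638 CPM to 444, 320 and 491 CPM (9.62 ± 0.34), and which cells made it was not tested. Mmp9 rose by 4.70 ± 0.27 and the receptor gene Trem1 by 6.03 ± 0.41. Camp, Elane, Mpo and Ngp, which neutrophils transcribe in the marrow, were below the filter on low counts. Ly6g was at 39.0, 50.7, 38.9 and 2.92 CPM at D0, with mouse 872 lowest again, and at 144, 130 and 83.0 CPM in tumor (1.72 ± 0.67, adjusted p = 0.0639). Without mouse 872 Ly6g passed the test (1.33 ± 0.24, adjusted p = 0.00302).

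Monocyte and macrophage markers rose in 18 of 20 members and fell in 1 (median 2.18). Arg1, arginase of alternatively activated and tumor-associated macrophages, was at 1.06, 0.217, 1.11 and 1.96 CPM at D0 and at 132, 182 and 138 CPM in tumor (6.96 ± 0.51). The complement genes C1qa (2.29 ± 0.25) and C1qb (2.22 ± 0.25) and the lysosomal glycoprotein gene Gpnmb (3.13 ± 0.27) rose. Cd163, the hemoglobin scavenger receptor of resident macrophages, went from 0.263 to 1.51 CPM to at most 0.0533 CPM (-4.45 ± 0.76). Dendritic cell markers rose in 6 of 11 members, with the actin bundler gene Fscn1 going from 2.48 to 3.24 CPM to 23.1 to 26.7 CPM (2.94 ± 0.17).

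Of 19 T cell markers 18 passed the filter and 14 rose, with a median of 2.11, at low levels, or 4 where each library had to hold at least 10 counts. Trbc1, a T cell receptor constant gene, was at 0.558, 0.434, 0.699 and 0.496 CPM at D0 and at 6.90, 5.63 and 4.96 CPM in tumor (3.27 ± 0.27). Cd8a was at 0.0362 to 0.596 CPM at D0 and at 0.2998 to 0.464 CPM in tumor, within the D0 range (0.54 ± 0.72), and without D0 mouse 915, the highest, the difference was 1.72 (adjusted p = 0.0362). Cd4 rose by 1.13 ± 0.27. Of 8 cytotoxic lymphocyte markers 3 rose, among them Gzmb, the gene of granzyme B, from at most 0.555 CPM to 2.18, 1.55 and 4.07 CPM (3.10 ± 0.74). Of 10 mast cell markers 7 passed the filter and all 7 rose, or 1 with at least 10 counts in each library, with the mucosal protease gene Mcpt1 at 0.337 to 0.380 CPM at D0 and at 35.2, 18.4 and 8.18 CPM in tumor (5.71 ± 0.48). B and plasma cell markers rose in 3 of 14 members, beside 14.7% of all genes tested. They rose in 0 without tumor mouse 527, in 1 without D0 mouse 915 and in 7 without tumor mouse 544. MHC class II genes rose in 8 of 9 members (median 2.12), with Cd74, the invariant chain, going from 59.8 to 112 CPM to 366, 418 and 906 CPM (2.65 ± 0.37).

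Genes induced by interferon-γ (IFN-γ) rose in 20 of 22 cases, with a median of 2.47. Nlrc5, the transactivator of MHC class I genes, was at 1.14, 0.868, 0.932 and 0.496 CPM at D0 and at 9.27, 9.49 and 13.8 CPM in tumor (3.52 ± 0.32). The chemokine gene Cxcl9 went from 0.570 to 3.44 CPM to 16.9, 9.92 and 65.2 CPM (4.49 ± 0.83), with mouse 544 highest, and without mice 544 and 872 the list count was 16. Type I IFN-stimulated genes rose in 9 of 25 cases and fell in 1, with a median of 0.69, and 12 rose without D0 mouse 872 against 6 without D0 mouse 915 or without tumor mouse 544. Usp18, a brake on the type I receptor, was at 1.54, 2.17, 1.68 and 2.75 CPM at D0 and at 14.2, 16.5 and 20 CPM in tumor (2.94 ± 0.25), and Ifit2 rose by 2.35 ± 0.23. Irf7, the factor that amplifies type I IFN, was at 150, 102, 99.5 and 251 CPM at D0 and at 48.9, 64.8 and 59.1 CPM in tumor (-1.51 ± 0.33, adjusted p = 0.00492). Isg15 (1.09 ± 0.44, adjusted p = 0.0717) and Mx1 (-0.98 ± 0.43, adjusted p = 0.0935) did not pass the test. Isg15 passed it without D0 mouse 872 (1.38) or tumor mouse 527 (1.35), and Mx1 without D0 mouse 853 (-1.22). Ifit1 was not called with all libraries and passed without D0 mouse 872 (1.14, adjusted p = 0.00459).

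The same comparison in WT mice (5 tumors, 4 D0 colons) called 15.4% of 19101 genes higher and 17.7% lower. In WT mice 16 of 21 Wnt target and stem cell genes rose and 3 fell, with a median of 1.70. All 8 Paneth cell genes (median 8.41) and 13 of 16 squamous genes (median 5.70) rose there too, and all 14 smooth muscle genes fell (median -4.87). Of the 25 type I IFN-stimulated genes 18 rose in WT mice and none fell, with a median of 2.13. Of the 22 IFN-γ-induced genes 21 rose, with a median of 3.93. Oasl2 was at 17.6 to 25.3 CPM in WT D0 colon and at 27.3 to 252 CPM in WT tumor, while in KO mice it was at 16.6 to 39.4 CPM at D0 and at 35.0 to 39.2 CPM in tumor. For this gene the WT tumors spread over a range that held the 3 KO tumors at its low end. Whether the change differed between genotypes was tested in 1 fit of 16 libraries as an interaction. edgeR called 0 of 20379 genes (0% higher, 0% lower), with a lowest adjusted p of 0.974 and 617 genes at an unadjusted p under 0.05, and DESeq2 called 1 gene. The unadjusted p was under 0.05 for 12 of the 25 type I genes, against 617 of all 20379, each of the 12 with the smaller change in KO. It was under 0.05 for 0 of the 22 IFN-γ-induced genes. The paper names Ddx60, Oas3, Slfn4 and Oasl2 among genes reduced in these same KO tumors against these WT tumors. The type I list thus holds genes picked from these libraries, so its count and direction support nothing by themselves. For Oasl2 the interaction was -1.95 ± 0.68 (unadjusted p = 0.0111) and for Ifit1 -2.20 ± 0.87 (unadjusted p = 0.0214). None passed after adjustment, so a difference between genotypes in the change from D0 was not shown for any of them. The paper compared KO with WT tumors directly and used p without adjustment for the number of genes. That contrast was not tested here.

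Without D0 mouse 872 edgeR called 5 genes in the interaction, all with a negative difference (KO minus WT), and without mice 544 and 872 it called 2 of those. They are named after their values were seen. Atp12a (-6.20 ± 0.80) was at 0.505 to 5.78 CPM in WT D0 colon, where KO D0 mice other than 872 were at 87.0 to 107 CPM, and at 82.3 to 134 CPM in KO tumor against 91.8 to 328 CPM in WT tumor. The phosphate transporter gene Slc20a1 (-2.26 ± 0.35), the sugar phosphate transporter gene Slc37a2 (-5.62 ± 0.60), Gm11535 and 2310079G19Rik were the others. Gm11535 and 2310079G19Rik were at 0 to 0.0448 CPM and 0 to 0.0437 CPM in WT D0 colon, too few counts for a fold. Slc37a2 and 2310079G19Rik were the pair called without both libraries, and DESeq2 called 2310079G19Rik with all libraries. Hoxb13 moved with the D0 part of this contrast, at 7.37 to 55.1 CPM in WT D0 colon and at 127 to 154 CPM in KO D0 colon other than mouse 872, and its part in these calls was not tested.

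**Figure D4:**
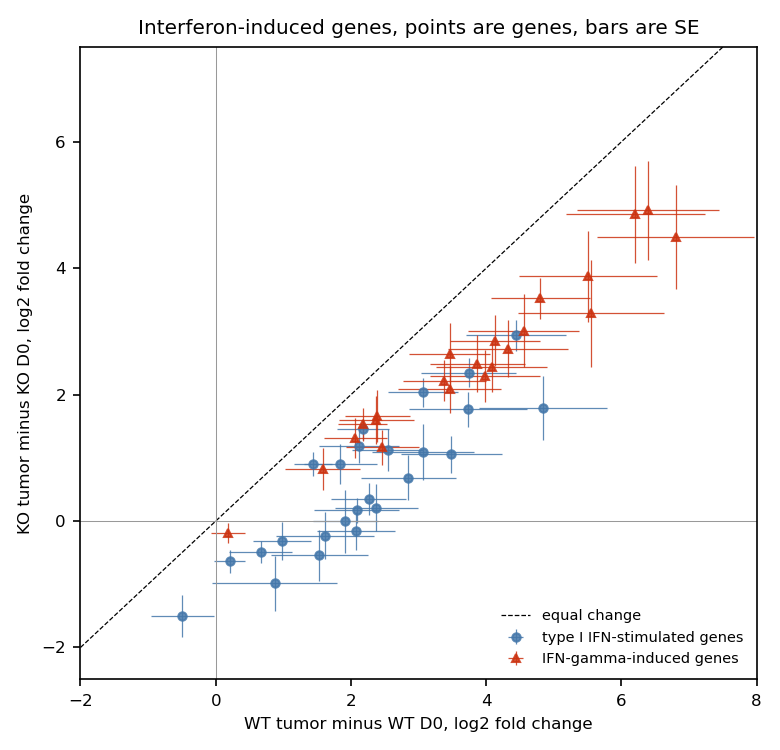
Tumor minus D0 difference (log2 fold change) in WT mice on the horizontal axis and in KO mice on the vertical axis for interferon-induced genes, each point 1 gene with its SE, and a dashed line where both are equal. All points lie under the line, and the interaction passed its test for none of these genes. Some of them were named by the paper from these same tumors.

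Matrix proteases and genes of the plasminogen system rose in 14 of 16 cases with none lower, and a median of 3.12. Mmp10, stromelysin-2, was at 0.771, 0.795, 0.725 and 0.555 CPM at D0 and at 257, 199 and 183 CPM in tumor (8.09 ± 0.24, adjusted p = 1.75e-07). Mmp13, a collagenase, went from 1.11 to 1.41 CPM to 356, 230 and 241 CPM (7.66 ± 0.26). Mmp12, the elastase of macrophages, was at 0.292 to 0.398 CPM at D0 and at 40.0, 38.3 and 37.7 CPM in tumor (6.66 ± 0.19), and Mmp3, stromelysin-1, rose by 5.55 ± 0.33. For these genes the tumors lay close together and far above D0. Timp2, a protease inhibitor gene, was not called (0.36 ± 0.21).

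The 4 protease genes Mmp3, Mmp10, Mmp12 and Mmp13 lie in 1 cluster on chromosome 9 and each holds the letters of the AP-1 motif, TGAGTCA on either strand, shortly before its start. The motif was chosen after the values were seen. It stood in the 250 bases before 4 of the 10 genes of this list with an entry, these 4, in 5.16% of all genes listed and in 4.46% of all promoters. The 110 bases before each start are shown with the match in capitals, at chr9:7445712-7445821 (Mmp3), chr9:7502232-7502341 (Mmp10), chr9:7347264-7347373 (Mmp12, at the start with a match) and chr9:7272404-7272513 (Mmp13), all on the plus strand of GRCm38.p6.
Mmp3: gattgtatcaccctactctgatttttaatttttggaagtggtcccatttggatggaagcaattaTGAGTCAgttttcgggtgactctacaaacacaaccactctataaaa
Mmp10: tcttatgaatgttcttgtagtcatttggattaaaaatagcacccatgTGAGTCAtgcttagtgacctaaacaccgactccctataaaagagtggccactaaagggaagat
Mmp12: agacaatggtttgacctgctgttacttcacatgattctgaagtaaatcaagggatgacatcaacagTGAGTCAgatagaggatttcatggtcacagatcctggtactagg
Mmp13: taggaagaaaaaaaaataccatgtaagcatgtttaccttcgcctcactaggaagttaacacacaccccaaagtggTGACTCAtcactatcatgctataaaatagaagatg
The match begins 46 bases before the start in Mmp3, 63 in Mmp10, 44 in Mmp12 and 35 in Mmp13. Such matches are letters in a window and do not show that a factor bound there.

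Collagen and fibroblast genes rose in 13 of 22 cases with none lower (median 1.14). Col1a1, a fibrillar collagen chain, was at 72.8, 79.7, 49.0 and 61.8 CPM at D0 and at 208, 214 and 215 CPM in tumor (1.57 ± 0.20), and Col18a1, a basement membrane collagen, rose by 2.70 ± 0.28. Of 15 endothelial markers 7 rose, among them the adhesion gene Cdh5 (1.64 ± 0.20) and Apln (2.41 ± 0.24), a peptide of sprouting vessels. Prox1 led this list, from 1.74 to 3.69 CPM to 116, 169 and 124 CPM (5.44 ± 0.31). It is a factor of lymphatic endothelium that intestinal tumor epithelium is also known to make, and Lyve1, the other lymphatic marker, was at 4.24 to 9.98 CPM at D0 and at 4.58 to 10.6 CPM in tumor (-0.06 ± 0.34).

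Genes of the muscle wall and its nerves and fat were low in tumor, where the labels name whole colon for D0 and tumor only for tumor. All 14 smooth muscle genes fell (median -5.00), and their summed level was 6087 to 11300 CPM at D0 and 211.9 to 328.9 CPM in tumor. Des, desmin, was at 2236, 1581, 1168 and 2124 CPM at D0 and at 11.5, 24.4 and 18.04 CPM in tumor (-6.75 ± 0.45). Of 20 enteric neuron and glia genes 18 fell (median -4.82), or 5 with at least 10 counts in each library. The neuronal filament gene Prph was at 5.88 to 10.4 CPM at D0 and at 0.0818 to 0.160 CPM in tumor (-6.13 ± 0.37). Ret, a receptor of enteric neurons that other cells can make, rose (1.41 ± 0.34) with overlapping groups. Of 9 adipocyte genes 8 fell, or 5 without D0 mouse 852, 853 or 915, and 3 with at least 10 counts in each library. Adipoq, the gene of adiponectin, had 933 counts over the D0 colons and 0 in tumor, a difference of -7.77 or further from 0. Among the 12 largest decreases were genes of these layers, such as the neurokinin receptor gene Tacr2 of smooth muscle (8.88, 9.76, 5.83 and 8.24 CPM at D0 and 0 counts in tumor). Of 4 genes of interstitial cells of Cajal, the pacemaker cells of the wall, 3 fell. The groups did not overlap for any of the 14 smooth muscle genes, and the part of these layers in the other differences was not tested.

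The largest decreases and those with the smallest p held genes of several kinds. Rims1, which encodes a scaffold of neurotransmitter release sites, was at 28.7, 30.1, 20.5 and 28.6 CPM at D0 and at 0.191, 0.0533 and 0.0714 CPM in tumor (-8.05 ± 0.37, adjusted p = 1.19e-06). Dpep1, a membrane dipeptidase of the epithelium, went from 356 to 634 CPM to 4.06, 5.15 and 2.96 CPM (-7.00 ± 0.34). H2-T3, a nonclassical MHC class I gene of the intestinal epithelium, fell by 8.28 on the log2 scale (SE 0.73). Mab21l2 (-7.92 ± 0.37), Pgm5, which encodes a protein of muscle adhesion sites (-6.44 ± 0.33), Foxd2os (-5.38 ± 0.25) and Ctxn3 (-8.87 ± 0.49) fell as well. Dpp10 and Ugt2b38 had 0 counts in tumor, for differences of -7.78 and -7.42 or further from 0. Cfd, the adipocyte gene of complement factor D, and Hand1, a factor of gut wall development, had 2724 and 747 counts over the D0 colons and 1 count each in tumor.

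Of 14 prostaglandin genes 4 rose and 5 fell, where 14.7% of all genes tested rose and 15.8% fell. The synthesis genes Ptgs2 (2.59 ± 0.35) and Ptges (2.48 ± 0.18) rose. Hpgd, the enzyme that degrades prostaglandin E2, was at 137, 141, 125 and 192 CPM at D0 and at 17.8, 16.8 and 10.04 CPM in tumor (-3.45 ± 0.26), and the uptake transporter gene Slco2a1 fell by 2.22 on the log2 scale (SE 0.24). Ptgds (3.35 ± 0.70) and Tbxas1 (1.72 ± 0.31), both synthases, rose too, while the prostacyclin synthase gene Ptgis (-1.68 ± 0.40) and the receptor genes Ptger3 (-3.33 ± 0.32) and Ptger1 (-1.36 ± 0.39) fell. Ptger1 lost the call without tumor mouse 527 (-1.31, adjusted p = 0.0625). Epithelial defence genes rose in 5 of 16 cases and fell in 2. Lcn2, a siderophore-binding protein, went from 0.389 to 1.63 CPM to 139, 146 and 188.2 CPM (7.57 ± 0.45), and Pigr, the receptor that carries IgA across the epithelium, fell by 1.84 on the log2 scale (SE 0.37). Of 17 claudin and junction genes 3 rose and 2 fell, near the shares over all genes. Cldn15 went from 126 to 207 CPM to 10.7 to 11.9 CPM (-3.99 ± 0.23). Of 14 genes of immediate early and stress responses 2 rose and 2 fell, again near the shares over all genes, and none fell without tumor mouse 544.

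Among 14 DNases and sensors of DNA, Dnase1l3 included, 3 rose and 1 fell, where 14.7% of all genes tested rose and 15.8% fell. Sting1, the adaptor of cytosolic DNA sensing, was at 8.11, 14.6, 6.40 and 4.09 CPM at D0 and at 104, 124 and 147 CPM in tumor (3.797 ± 0.38, adjusted p = 5.97e-05). Ifi204 rose by 2.59 ± 0.37. Trex2, an exonuclease of squamous epithelium, had 2 counts over the D0 colons and was at 4.03, 2.85 and 1.82 CPM in tumor. Dnase1l2 fell from 1.08 to 1.99 CPM to 0.143 to 0.613 CPM (-2.04 ± 0.47). Of 13 mitochondrially encoded mRNAs 5 fell, all 13 without tumor mouse 544, and 2 without D0 mouse 852, tumor mouse 527 or tumor mouse 543. mt-Nd4 was at 5363, 3945, 3671 and 3867 CPM at D0 and at 1326, 1194 and 2405 CPM in tumor (-1.48 ± 0.35).

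To compare tumor with treated colon of the same stage, the tumors were set beside KO whole colon after 3 cycles (D80, 4 mice), of which mice 527, 543 and 544 also gave the tumors. Both comparisons share the tumor libraries. Against D80, 2006 of 19457 genes were higher (10.3%) and 3189 lower (16.4%). With the mouse as a block, 1160 were higher, and without D80 mouse 535, 1324 were higher. Squamous genes stayed far above D80 colon, with 12 of 16 higher (median 4.13). Krt6a was at 0.3002 to 2.06 CPM at D80 (6.20 ± 0.62 against D80) and Krt5 at 0.190 to 0.467 CPM (8.52 ± 0.29). Hoxd9 to Hoxd13 were likewise called in both comparisons, with Hoxd13 at 1.53 to 6.81 CPM at D80 (5.11 ± 0.50). Ltf was at 3.86 to 17.9 CPM at D80 (5.34 ± 0.50), and Notum at 2.55 to 30.6 CPM (2.39 ± 0.64). Of 17 neutrophil markers 2 were called above D80, with a median of 0.62. Of 16 matrix protease and plasminogen genes 7 were called above D80 and 0 below. Wnt target and stem cell genes were called above it in 7 of 22 cases and below in 1. For fetal-like and repair genes 7 of 20 were above and 1 below, and for cytokines and chemokines 8 of 23 and 2. Cell cycle genes were above D80 in 6 of 28 cases and below in 0.

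Some lists had few members called above D80 colon, or had many that were lower in tumor. Of the Paneth cell genes 1 of 8 was called above D80, where Lyz1 was at 81.5 to 1286 CPM (1.72 ± 0.77, adjusted p = 0.0951). T cell markers were lower in tumor than at D80 in 12 of 18 cases and dendritic cell markers in 8 of 11. Cd4 was at 10.99 to 21.96 CPM at D80 (-2.68 ± 0.25). B and plasma cell markers were lower in 11 of 14 cases and collagen and fibroblast genes in 9 of 22. The summed level of T cell markers was 7.376 to 11.60 CPM at D0, 70.59 to 115.7 CPM at D80 and 41.99 to 43.58 CPM in tumor, and dendritic cell and collagen genes lay between D0 and D80 in the same way. B and plasma cell genes in tumor overlapped D0, at 1127 to 4692 CPM against 905.3 to 1831 CPM.

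**Figure D5:**
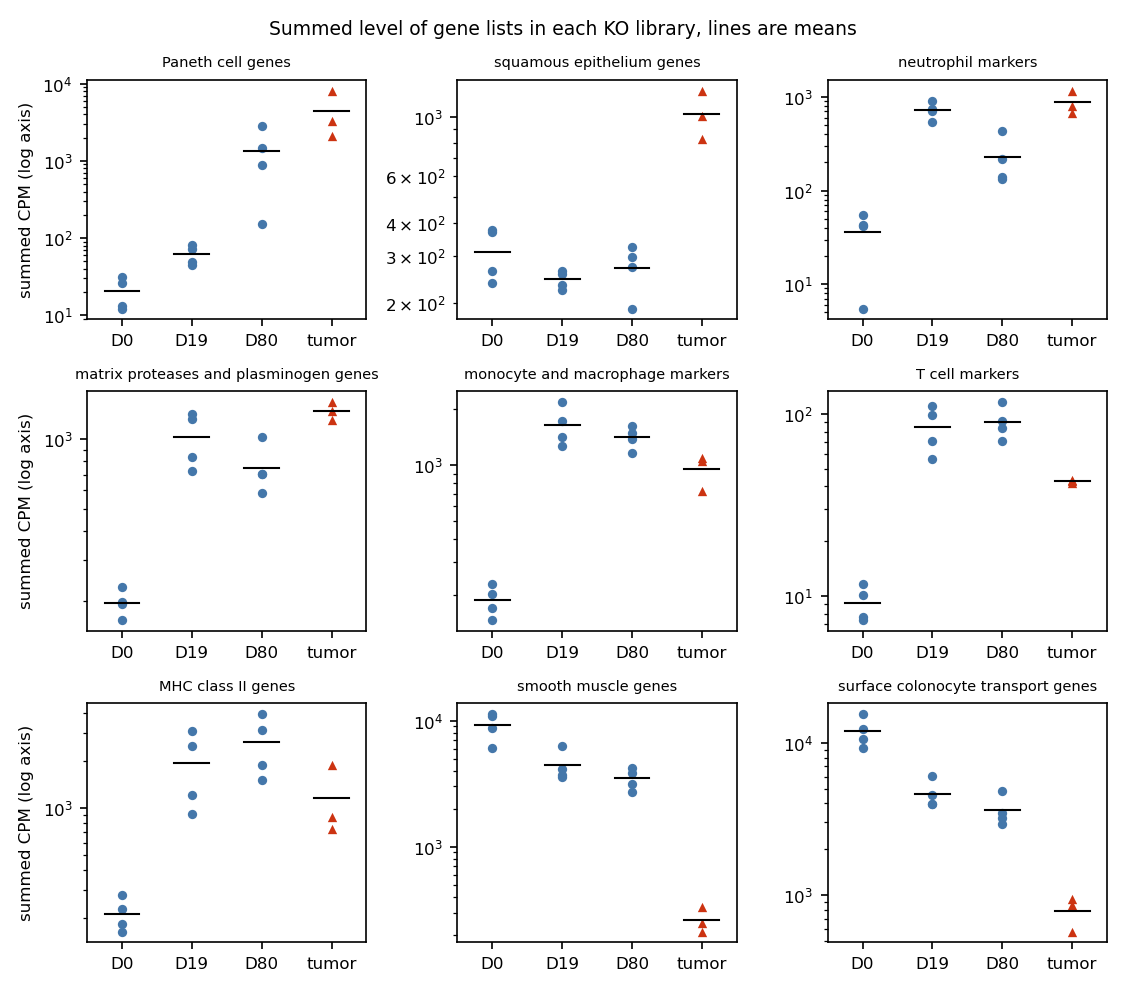
Summed CPM of 9 gene lists in each KO library on log axes, at D0, after 1 cycle (D19), after 3 cycles (D80) and in tumor (red triangles), each point 1 library and each line the group mean. Squamous genes are higher in tumor than in any library of the other stages, at 827.3 to 1257 CPM against 236.8 to 375.3 CPM at D0, while T cell markers are lower in tumor than at D80, and smooth muscle genes fall to 211.9 to 328.9 CPM in tumor.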

How the data were processed

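RNA from mouse colon and colon tumors was sequenced as single-ended reads. The authors deposited 1 table of raw counts for 55291 genes in 32 libraries, and every column was matched to a sample by its title (0 columns unmatched). The submitters' processing notes name FastQC 0.11.5, STAR, Subread and the build mm10, while how strand was handled in counting is not given in the sources used here. Each library is a separate mouse within its group.

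Counts were filtered by filterByExpr, scaled by TMM and tested by edgeR's quasi-likelihood test (edgeR 4.0.16 with legacy=TRUE, R 4.3.3), with Benjamini-Hochberg adjustment over all genes tested. Called genes had an adjusted p below 0.05 and differed by more than 2 times. The tumor against D0 fit held the 7 KO libraries, and it was also run on simulated data with known changes as a self-test. CPM used TMM factors over all 32 libraries. Depth was 32840426 to 40391830 counts in the 7 libraries, and intervals or floors of counts cover counting error only.

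The 46 lists hold 805 genes, of which 729 were tested. Members and lists were chosen with earlier results of these data known. Named genes were the 12 largest increases and decreases among called genes whose groups did not overlap and with a mean of at least 5 CPM in the higher group, the 6 with the smallest p in each direction, Dnase1l3 and, for each list, at most 5 of its lowest p. Predicted genes, pseudogenes and receptor segments were left out, and all other named genes were chosen after their values were seen. A few genes that the rule names are not reported here. Promoters came from the RefSeq table of GRCm38.p6, and gene positions are those of GRCm38.

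Alternatives were DESeq2 1.42.0, other size factors, other filters on low counts, a fit of all 32 libraries, leaving out gene classes and leaving out each library. KO tumors and KO D80 colon share mice 527, 543 and 544 by the numbers in the titles, so these samples are paired by animal. Their deviations from the group means correlated with r of 0.0974, 0.0664 and 0.16, and the fit with the mouse as a block was an alternative.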

Additional observations from a re-analysis of the deposited data

Results flagged for a closer look

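In 20 of 196 genes screened 1 D0 colon lay far from the other 3, measured by its gap to the nearest of them over the whole range. Chance alone flags about 1 in 20 groups, and tumor, with 3 libraries, was not screened. Mouse 853 was the high library for Cxcl9 (3.44 CPM), Ccl20 (4.09 CPM), S100a9 (0.868 CPM), Ly6d (3.36 CPM) and Gcg (96.2 CPM). Mouse 872 was high for Gsta4 (44.9 CPM), Ifit1 (28.0 CPM), Pcna (91.7 CPM) and Mcm4 (16 CPM). Mouse 852 was low for Notum (0.213 CPM) and high for mt-Nd4 (5360 CPM) and Mmp9 (1.44 CPM), and mouse 915 was low for Pgm5 (91.7 CPM), Rims1 (20.5 CPM) and Znrf3 (6.73 CPM) and high for Lef1 (0.492 CPM). The flags of Serpinb11 (0.0266 CPM) and Cxcl3 (0.0266 CPM) in mouse 852 and of Cdkn2a (0.0292 CPM) and Cxcl2 (0.0584 CPM) in mouse 872 rest on 1 or 2 counts each.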

How the results depend on the processing

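Requiring at least 10 counts in each library, which left 15854 genes to test, gave 3808 genes in KO tumor against D0 (1837 higher, 1971 lower), 3968 in WT (1770 higher, 2198 lower) and 2117 lower in KO tumor than at D80. By construction it removes genes near 0 in 1 group. The count that rose went from 16 to 1 for neutrophil markers, from 22 to 8 for cytokines and from 13 to 3 for squamous genes. For T cell markers it went from 14 to 4, for Paneth cell genes from 8 to 4 and for mast cell markers from 7 to 1. For posterior Hox genes it went from 5 to 1, and for Wnt ligands and R-spondins from 8 to 4. The count that fell went from 13 to 7 for enteroendocrine genes and from 18 to 5 for enteric neuron and glia genes. For adipocyte genes it went from 8 to 3 and for tuft cell genes from 6 to 3. The other alternatives kept the KO tumor against D0 count between 5353 and 6969, the highest with no filter on low counts, and leaving out 1 library gave 5353 to 6289. In the interaction, DESeq2 called 1 gene, and leaving out 1 library gave 0 to 5, or 2 without mice 544 and 872 together. The cause was not tested.

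With the mouse as a block, which uses the pairing of tumor and D80 colon by animal, KO tumor against D80 called 3927 genes in place of 5195, with 1160 higher. Leaving out 1 library moved the number higher from 1324 to 2585.

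The genes whose sign turned were not called in KO tumor against D0 with all libraries. Leaving out 1 library gave -0.064 to 0.549 for Ccl20, -0.176 to 0.142 for Cdh1, -0.595 to 0.122 for Gm11535, -0.389 to 0.312 for Hoxd8, -0.271 to 0.256 for Krt19, -0.405 to 0.066 for Krt8, -0.399 to 0.186 for Lyve1, -0.246 to 0.549 for Mki67 and -0.613 to 0.475 for Spink4. Without mice 544 and 872 together the differences were 0.155 for Cdh1, -0.153 for Dnase1l3, 0.156 for Hoxd8, 0.344 for Krt19, 0.164 for Krt8 and -0.822 for Spink4. In the fit of all 32 libraries they were 0.075 for Cdh1, 0.048 for Krt19 and 0.049 for Lyve1. The cause was not tested.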
